A study of Mus musculus with 6 samples.

Results

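The hypoxia-inducible factor (HIF) pathway and the vascular endothelial growth factor (VEGF) ligands were followed here through 10 genes, matched by symbol among the 25491 genes of the deposited count table, each with 1 row. They are the HIF alpha subunits Hif1a and Epas1 (HIF-2 alpha), their partner Arnt, the oxygen sensors Egln1 and Egln3, the ubiquitin ligase subunit Vhl, the target gene Bnip3, and the ligands Vegfa, Vegfb and Vegfc. All 10 passed the filter on low counts. RNA was measured in mesenchymal progenitor cells of mouse bone marrow, sorted as CD51+ and as negative for CD45, TER119, CD31, CD44 and SCA1. The wild type group and the Lama4-/- group, which lacks the laminin alpha 4 chain, had 3 libraries each. All mice were C57BL/6J, aged 14 weeks, and had received a sublethal 7 Gy of radiation 6 weeks before the sort, so there is no group without irradiation. The series' design counts 3 mice of each genotype without tying a library to a mouse. If libraries share mice, the p-values describe a spread that is partly technical.

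HIF transcription factors pair an oxygen-regulated alpha subunit with a constitutive beta subunit. When oxygen is plentiful, prolyl hydroxylases of the EGLN (PHD) family hydroxylate the alpha subunit, and the VHL complex then marks it for degradation, so most of the regulation acts on the protein rather than on its mRNA. When oxygen is scarce, the dimer binds DNA and raises transcription of genes of glycolysis, mitophagy and blood vessel growth, among them Vegfa, and of its own feedback enzyme Egln3. Bone marrow is a low-oxygen tissue, and its stromal cells are a source of VEGF for the sinusoidal endothelium.

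Library totals ran from 6263830 to 15663957 counts, with wild type replicate 2 the shallowest. Lama4, read as a check of the labels, had 1281 counts over the wild type libraries and 0 in every Lama4-/- library (edgeR, adjusted p = 0.0497, a call at the threshold that 10 of 15 alternatives lost). All 11 marrow stromal markers listed were detected in both genotypes, with Cxcl12 at 3701 to 10051 counts per 1000000 counts of the library (CPM). Of these 11, 9 had a negative log2 fold change in edgeR, with a median of -0.92, or -0.12 without the trend of transcript length. By an unadjusted p under 0.05, 6 were lower (2 without that trend), 4 were called lower by DESeq2, and 5 had groups that did not overlap, wild type being the higher (12% of all tested genes; by the other rules 8.34%, 3.16% and 3.56%). The receptor genes Lepr (361 ± 137 against 128 ± 52.2 CPM, n = 3) and Pdgfrb (268 ± 89.8 against 109 ± 26.7 CPM) were among them. The summed level of the 11 overlapped between genotypes, but it is mostly Col1a1 and Col1a2 and says little of the other markers. The sorted integrin chain Itgav was itself at 95.9 to 139 CPM in wild type and 44.5 to 73.0 in Lama4-/- (log2 fold change -0.94; edgeR, adjusted p = 0.245; DESeq2, 0.0401), or at -0.12 without the trend of length. All 5 genes of the sort gate had a negative log2 fold change, and Cd44, a marker the gate excludes, was read at 70.6 to 152 against 53.2 to 82.0 CPM. The summed level of 13 endothelial markers was 11.5 to 17.4 CPM in wild type and 6.18 to 8.05 in Lama4-/-, that of 11 neutrophil and monocyte markers 55.0 to 149 against 118 to 752, and that of 8 red cell markers 257 to 1693 against 1379 to 3874. The first of these did not overlap between genotypes, and the other 2 did, with the highest libraries in Lama4-/-. Of the 11 neutrophil and monocyte markers, 9 had a positive and 2 a negative log2 fold change (median 2.51), and DESeq2 called 4 higher. All 8 red cell markers had a positive one (median 1.60), and DESeq2 called 1 higher, where it called 1.08% of all genes higher.

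Both HIF alpha subunit transcripts were lower in every Lama4-/- library than in any wild type library, and the rest of the 10 genes had groups that overlapped. Over all tested genes, 22.3% had groups that did not overlap, 12% with wild type above. Of the 10 genes, 0 passed an adjusted p of 0.05 in edgeR's quasi-likelihood test, where 0.00691% of all tested genes did (1 of 14465, Lama4). Hif1a and Epas1, 2 of the 10, had an unadjusted p under 0.05, both lower, and 8.34% of all tested genes were lower by that rule and 4.45% higher. That is 1207 lower and 644 higher genes, a split that became 967 and 988 with upper-quartile scaling. With DESeq2 the same 2 genes passed an adjusted p of 0.05, against 3.56% of genes called lower and 1.08% higher, and limma voom called 0. The authors' deposited table also lists these 2 and no other of the 10 under 0.05, where 4.75% of its genes with an adjusted p are lower. The median log2 fold change of the 10 was -0.21, beside -0.04 over all tested genes, and ran from -0.21 to 0.08 over the alternatives.

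**Figure D1:**
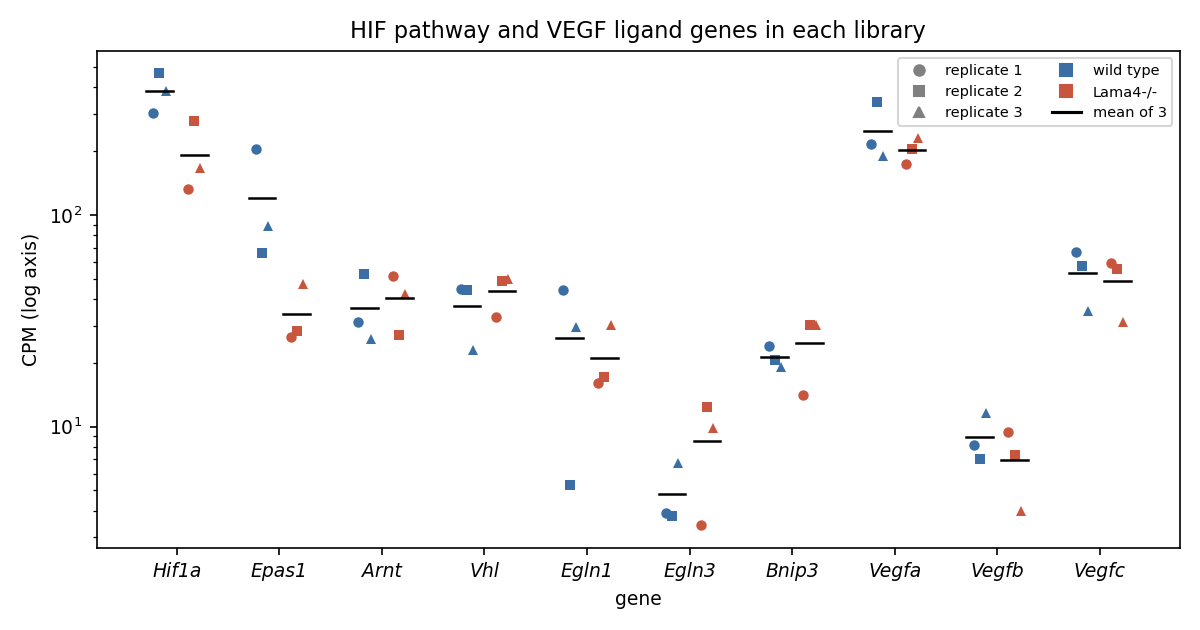
CPM of the 10 genes (log axis) in 3 wild type libraries (blue) and 3 Lama4-/- libraries (red), with a symbol for each replicate and the mean as a black line. Hif1a and Epas1 have groups that do not overlap, as have 22.3% of all tested genes in either direction. The groups of the other 8 genes overlap.

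Epas1 encodes HIF-2 alpha, the alpha subunit of endothelial and stromal cells best known for its role in the control of erythropoietin. The gene lies on chromosome 17 (86753700 to 86833410, plus strand, GRCm38). Its transcript was at 205, 65.8 and 88.7 CPM in wild type replicates 1, 2 and 3 and at 26.5, 28.4 and 47.1 CPM in Lama4-/-. Every wild type library was above every Lama4-/- library, and wild type replicate 1 stood well above the rest. The means were 120 ± 74.7 and 34.0 ± 11.4 CPM (SD, n = 3), 3.53-fold lower in Lama4-/-. The log2 fold change was -1.82 (SE 0.47; edgeR, adjusted p = 0.238), and 12% of all tested genes had wild type above Lama4-/- with no overlap. With DESeq2 the adjusted p was 0.00753. Without wild type replicate 1 the log2 fold change was -1.17 in edgeR (adjusted p = 0.471), and DESeq2 then gave an adjusted p of 0.0708. The authors' deposited table gives Epas1 a shrunken log2 fold change of -1.52 with an adjusted p of 0.00610.

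Hif1a encodes HIF-1 alpha, the broadly expressed alpha subunit that drives the glycolytic response. It lies on chromosome 12 (73901375 to 73947530, plus strand). It was read at 304, 466 and 383 CPM in wild type and at 133, 278 and 167 CPM in Lama4-/-. The groups did not overlap, and the smallest gap was between wild type replicate 1 and Lama4-/- replicate 2. The means were 384 ± 81.4 and 193 ± 75.8 CPM (n = 3), 1.99-fold lower in Lama4-/-, with a log2 fold change of -1.0 (SE 0.31; edgeR, adjusted p = 0.277). The DESeq2 call lay at the threshold (adjusted p = 0.04999) and was lost without wild type replicate 2 (0.163), wild type replicate 3 (0.268), Lama4-/- replicate 1 (0.200) or Lama4-/- replicate 3 (0.171). The authors' deposited table has Hif1a at -0.91 with an adjusted p of 0.0401. An antisense gene, Gm15283, shares 330 exonic bases with Hif1a and held 29 counts over the 6 libraries beside 19968 for Hif1a, and the kit does not mark strand.

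The 2 alpha transcripts did not vary in step among the wild type libraries. Replicate 1 had the highest Epas1 and the lowest Hif1a, and replicate 2 the reverse. Per kilobase of the longest annotated transcript, the ratio of Epas1 to Hif1a was 0.579, 0.121 and 0.198 in wild type and 0.171, 0.0873 and 0.241 in Lama4-/-, and these ranges overlapped. Their sum was nearly level in wild type, at 101.5, 110.6 and 97.2 CPM per kb, and stood at 32.9, 64.0 and 44.0 in Lama4-/-. Hif1a made up most of that sum in every library. The ratio and the sum were chosen after the values were seen and carry no test. In bulk RNA, fewer expressing cells and less RNA per cell cannot be told apart.

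**Figure D2:**
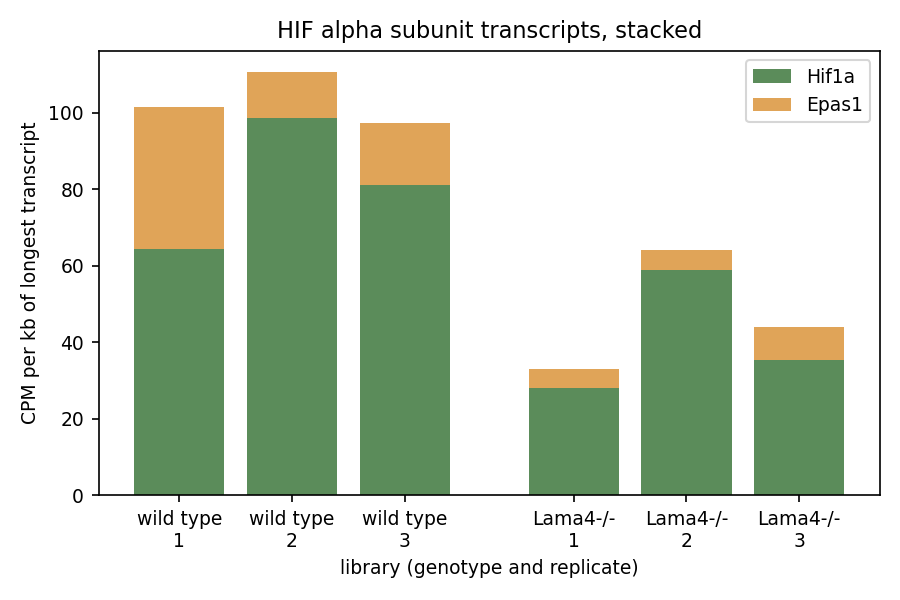
Hif1a and Epas1 in CPM per kb of the longest annotated transcript, stacked for each of the 6 libraries. The stacked heights are 97.2 to 110.6 in wild type and 32.9 to 64.0 in Lama4-/-, with Hif1a the larger part throughout.

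Epas1 is also a transcript of endothelial cells, the cells the CD31 gate removes. Of 13 endothelial markers in the table, 4 had 0 counts in every Lama4-/- library, among them Cdh5, Tek and Tie1, which reached at most 2.24, 1.65 and 1.77 CPM in a wild type library. Pecam1 was at 1.39 to 2.05 CPM in wild type and at 0.06 to 0.752 in Lama4-/-. Other genes of the list lay the other way by their means, Esam at 0.606 against 1.78, Plvap at 1.83 against 2.37 and Cldn5 at 0 against 0.194 CPM, and of the 5 tested 3 had a negative and 2 a positive log2 fold change. Epas1 was at 26.5 CPM or more in all 6 libraries. The part of the endothelial list in the Epas1 difference was not tested, nor was that of the stromal markers, with negative log2 fold changes for 9 of 11, in the differences of Hif1a, Epas1 and Nrp1.

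Transcript length moved with these fold changes. Across tested genes, longer transcripts had lower log2 fold changes (Spearman's rho -0.46; genes are not independent replicates). The longest transcripts of Epas1 and Hif1a are 5516 and 4724 bases, and those of the other 8 genes run from 1281 to 4325. After subtracting a lowess curve of length from each library, the log2 fold change was -1.24 for Epas1 (SE 0.48; edgeR, unadjusted p = 0.0344, adjusted p = 0.568). It was -0.60 for Hif1a (SE 0.26, unadjusted p = 0.0530, adjusted p = 0.621). Both stayed negative, and Epas1 alone of the 10 then had an unadjusted p under 0.05, where 3.16% of tested genes were lower and 4.95% higher by that rule.

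**Figure D3:**
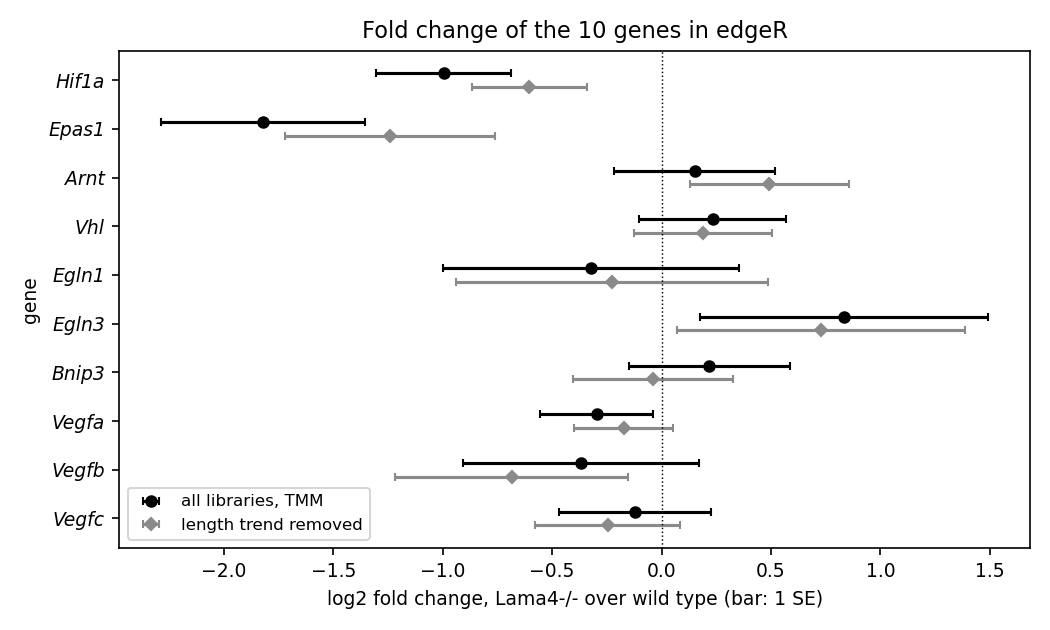
log2 fold change of Lama4-/- over wild type in edgeR for the 10 genes, with 1 SE, from the fit on all libraries (black) and with the length trend removed (grey). Epas1 moves from -1.82 to -1.24 and Hif1a from -1.0 to -0.60, while Bnip3 crosses from 0.22 to -0.04.

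Arnt encodes HIF-1 beta, the partner of both alpha subunits (chromosome 3, 95434388 to 95497240, plus strand). It was at 31.0, 52.4 and 25.8 CPM in wild type and at 51.2, 27.2 and 42.5 CPM in Lama4-/-, with complete overlap of the groups. The log2 fold change was 0.15 (SE 0.37; edgeR, adjusted p = 0.913). It was -0.04 without Lama4-/- replicate 1 and -0.03 without wild type replicate 3, so no direction can be given for Arnt. Per kilobase, Hif1a exceeded Arnt by 8.95, 8.15 and 13.6 times in wild type and by 2.38, 9.35 and 3.61 times in Lama4-/-. Of the Lama4-/- libraries, replicate 2 alone lay within the wild type range. Of the other relatives, Arnt2 stayed at or under 6.24 CPM, and Hif3a, an alpha subunit that can act as an inhibitor, was read only in Lama4-/- replicate 2, with 22 counts.

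The coactivators that HIF recruits were also read. The acetyltransferases Crebbp (CBP) and Ep300 (p300) were at 104 ± 54.7 against 32.4 ± 9.52 CPM and at 43.0 ± 11.2 against 16.9 ± 7.70 CPM (wild type first, n = 3). Crebbp had a log2 fold change of -1.68 (edgeR, adjusted p = 0.252; DESeq2, 0.0199) and Ep300 of -1.35 (edgeR, 0.287; DESeq2, 0.0716). Both transcripts are very long, and without the trend of length the values were -0.44 and -0.24. Cited2, which competes with HIF for these coactivators and is itself a HIF target, was at 86.2 ± 7.06 against 103 ± 16.9 CPM. Of the 6 coactivators and inhibitors tested, 0 passed in edgeR and 1 in DESeq2, with 3 at an unadjusted p under 0.05, all lower. Over all tested genes 8.34% were lower by the last rule and 3.56% in DESeq2, and 0 of the 6 had an unadjusted p under 0.05 without the trend of length.

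Among the oxygen sensors, Egln1 (PHD2) is the main HIF prolyl hydroxylase in most cells (chromosome 8, 124908587 to 124949324, minus strand). It was at 44.0, 5.31 and 29.7 CPM in wild type and at 16.1, 17.2 and 30.2 CPM in Lama4-/-. The wild type range contained the whole Lama4-/- range, and its lowest value rests on 31 counts in the shallowest library. The log2 fold change was -0.32 (SE 0.68; edgeR, adjusted p = 0.894), and it was 0.27 without wild type replicate 1 and -0.80 without wild type replicate 2. No direction can be given for Egln1, a gene that both genotypes expressed.

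Egln3 (PHD3), the hydroxylase that HIF itself induces, had the lowest level per kilobase of the 10 genes (chromosome 12, 54178981 to 54203860, minus strand). It was at 3.89, 3.77 and 6.71 CPM in wild type and at 3.42, 12.4 and 9.88 CPM in Lama4-/-. Lama4-/- replicates 2 and 3 were above all wild type libraries, and Lama4-/- replicate 1 was the lowest of the 6. The log2 fold change was 0.83 (SE 0.66; edgeR, adjusted p = 0.665), the highest of the 10, and it remained positive in all 15 alternatives, from 0.47 to 1.22. The library counts behind it ran from 22 to 165.

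Vhl encodes the substrate-binding subunit of the ubiquitin ligase that recognises hydroxylated HIF alpha (chromosome 6, 113623959 to 113631633, plus strand). It was at 44.8, 44.2 and 23.0 CPM in wild type and at 33.0, 49.0 and 49.6 CPM in Lama4-/-. The groups overlapped, and the log2 fold change was 0.23 (SE 0.34; edgeR, adjusted p = 0.832), or -0.01 without wild type replicate 3. Of 11 sensors and ligase genes tested, Vhl, Egln1 and Egln3 included, 0 passed in edgeR, DESeq2 or at an unadjusted p under 0.05 in edgeR, and their median log2 fold change was 0.22. Egln2 (PHD1), another prolyl hydroxylase, was at 49.9 ± 9.40 against 53.8 ± 17.2 CPM, and the asparaginyl hydroxylase Hif1an at 25.8 ± 16.7 against 23.2 ± 3.10 CPM. The ligase scaffold Cul2 was at 18.5 ± 5.06 against 29.3 ± 6.3 CPM. Without the trend of length, Cul2 alone of the 11 had an unadjusted p under 0.05. Its log2 fold change was then 0.86 (edgeR, unadjusted p = 0.0211, adjusted p = 0.548), and 4.95% of tested genes were higher by that rule. Siah2, a ubiquitin ligase of the EGLN enzymes, was at 133 ± 23.0 against 179 ± 20.7 CPM with no overlap and a log2 fold change of 0.43 (edgeR, adjusted p = 0.433), where 10.3% of all tested genes had Lama4-/- above wild type in this way.

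HIF dimers recognise a short core on DNA, ACGTG or GCGTG, and the promoters of the members are shown to make that core visible. RefSeq promoter windows (GRCm38.p6) were found for 9 of the 10 genes, with 2 for Vegfa. Over the 250 bases before the start, on both strands, 7 of the 10 windows held the core, and 38.6% of all 32851 windows did. The downstream window of Vegfa and the window of Hif1a are among the 7, and both lie within the annotated gene. The stretches around the Vegfa cores overlap an annotated Vegfa exon. A stretch of Egln1 and a stretch of Bnip3, neither printed below, also overlap an exon of their gene. Hits on the 2 strands overlap where the letters read CACGTG, which is also the E-box of other factors. In the Bnip3 stretch below, the marked core is part of CACGTG, and further cores read on the other strand are not marked. The 3 stretches carry a core in capitals, for the target gene Bnip3 at chr7:138909589-138909633 (minus strand), for Egln3 at chr12:54204079-54204123 (minus strand) and for Hif1a at chr12:73907777-73907821 (plus strand), each 5′ to 3′ on the gene's strand.
Bnip3: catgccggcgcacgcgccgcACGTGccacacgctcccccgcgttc
Egln3: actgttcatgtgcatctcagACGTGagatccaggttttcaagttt
Hif1a: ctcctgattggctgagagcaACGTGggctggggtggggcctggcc
The windows of Vhl and Vegfc and the upstream window of Vegfa held 0 cores, which says only that these letters are not in those windows. No binding was measured here.

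Bnip3, a mitophagy receptor of the outer mitochondrial membrane and a standard HIF-1 target, lies on chromosome 7 (138890836 to 138909519, minus strand). It was at 24.2, 20.5 and 19.2 CPM in wild type and at 14.1, 30.2 and 30.1 CPM in Lama4-/-. The wild type libraries were close together, with Lama4-/- replicate 1 below and Lama4-/- replicates 2 and 3 above them. The log2 fold change was 0.22 (SE 0.37; edgeR, adjusted p = 0.863), or -0.04 without the trend of length. An antisense gene, Gm45507, shares 504 exonic bases with Bnip3 and was not analysed here. Lama4-/- replicate 1 was the lowest of the 6 libraries for the HIF targets Bnip3, Egln3 and Vegfa, and also for Hif1a and Epas1. Other targets went both ways in that library. Slc2a1 and Tfrc were the lowest of the 6 there, while Ankrd37 was the highest. Stc2 and Angptl4 lay above every wild type library. A link of these levels to the alpha subunits was not tested.

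The wider list of HIF target genes had log2 fold changes on both sides of 0. Of 30 tested targets, which include Bnip3, Egln3 and Vegfa, 13 had a negative and 17 a positive log2 fold change. Their median was 0.04, beside -0.04 over all tested genes. In edgeR 0 passed, with 1 lower and 2 higher at an unadjusted p under 0.05, and DESeq2 called 1 lower and 1 higher. These counts lie near the shares over all genes, 8.34% lower and 4.45% higher by unadjusted p and 3.56% and 1.08% in DESeq2. Stc2, a secreted glycoprotein of calcium and phosphate balance, was at 21.9, 19.9 and 15.05 CPM in wild type and at 44.5, 39.8 and 55.0 CPM in Lama4-/-. The groups of Stc2 were far apart, with a log2 fold change of 1.29 (SE 0.28; edgeR, adjusted p = 0.237; DESeq2, 0.00284), or 1.53 without the trend of length. Angptl4, an inhibitor of lipoprotein lipase, was at 230 ± 33.3 against 341 ± 44.6 CPM (n = 3) with a log2 fold change of 0.57 (edgeR, adjusted p = 0.302; DESeq2, 0.0992). Ankrd37 was at 2.66 ± 0.633 against 7.27 ± 3.28 CPM and the lipid droplet gene Hilpda at 88.5 ± 15.2 against 115 ± 23.0 CPM.

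On the lower side of the targets, the transferrin receptor Tfrc was at 57.6 ± 14.7 against 32.3 ± 14.8 CPM and the glucose transporter Slc2a1 at 180.5 ± 28.0 against 135 ± 38.0 CPM (n = 3). The glycolytic regulator Pfkfb3 was at 117 ± 22.1 against 89.6 ± 16.8 CPM. Wild type and Lama4-/- libraries overlapped for all 3, and edgeR's adjusted p ran from 0.442 to 0.560. Of the 30 tested targets, Stc2, Angptl4 and Ankrd37 were the 3 with every Lama4-/- library above every wild type library. That is near the share over all tested genes, 10.3%.

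**Figure D4:**
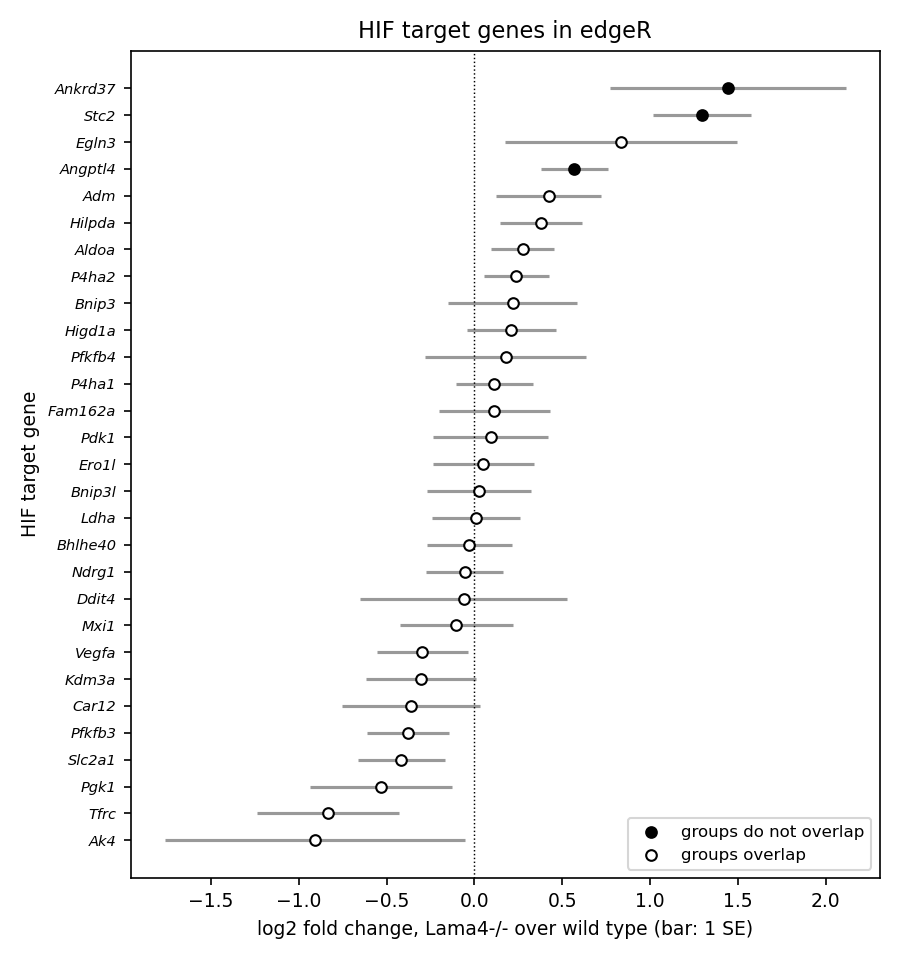
log2 fold change of Lama4-/- over wild type in edgeR, with 1 SE, for 29 of the 30 tested HIF target genes, filled where the 2 groups of libraries do not overlap. The genes lie on both sides of 0, from Ak4 at -0.91 to Ankrd37 at 1.44.

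Vegfa, the main angiogenic ligand, lies on chromosome 17 (46016993 to 46032369, minus strand). It was at 217, 342 and 190 CPM in wild type and at 173, 205 and 231 CPM in Lama4-/-. Wild type replicate 2 was the highest library and the other 5 lay close together. The means were 250 ± 80.8 and 203 ± 29.0 CPM (n = 3), with a log2 fold change of -0.30 (SE 0.26; edgeR, adjusted p = 0.697). Without wild type replicate 2 the log2 fold change was -0.0044, so the difference of the means rests on that library. Lama4-/- replicate 1, at 173 CPM, was the lowest of the 6 libraries. A link of Vegfa to the levels of Hif1a and Epas1 was not tested.

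Vegfc, the ligand of lymphatic growth, lies on chromosome 8 (54077606 to 54187096, plus strand). It was at 66.6, 57.4 and 35.1 CPM in wild type and at 59.5, 55.6 and 31.2 CPM in Lama4-/-. In each genotype 2 libraries were high and 1 was low, and the log2 fold change was -0.12 (SE 0.35; edgeR, adjusted p = 0.924). Vegfb, a ligand of VEGFR1 linked to fatty acid uptake, lies on chromosome 19 (6982473 to 6987651, minus strand). It was at 8.15, 7.02 and 11.7 CPM in wild type and at 9.42, 7.37 and 3.99 CPM in Lama4-/-, on 41 to 157 counts per library. The groups overlapped, and the log2 fold change was -0.37 (SE 0.54; edgeR, adjusted p = 0.835).

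Of the other ligands, placental growth factor (Pgf), which binds VEGFR1, was at 47.0, 56.3 and 22.7 CPM in wild type and at 74.9, 60.9 and 53.4 CPM in Lama4-/-. Its log2 fold change was 0.59 (SE 0.36; edgeR, adjusted p = 0.550), with 1 wild type library above the lowest Lama4-/- library. Vegfd had 24 counts over the wild type libraries and 1 over the Lama4-/- libraries and was not tested. Of the 4 tested ligands 0 passed in edgeR or DESeq2, or had an unadjusted p under 0.05 in edgeR.

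Per kilobase, the sum of Vegfa, Vegfb, Vegfc and Pgf was 119, 155 and 89.5 CPM per kb in wild type and 118, 117 and 109 in Lama4-/-, so the Lama4-/- values lay inside the wild type range. Vegfa made up 52.9%, 63.9% and 61.6% of that sum in wild type and 42.6%, 50.7% and 61.8% in Lama4-/-. Vegfa was the largest part in all 6 libraries. The share of Pgf was 18.99%, 17.5% and 12.2% in wild type and 30.5%, 25.0% and 23.6% in Lama4-/-, with no overlap. These shares were computed after the values were seen and carry no test.

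**Figure D5:**
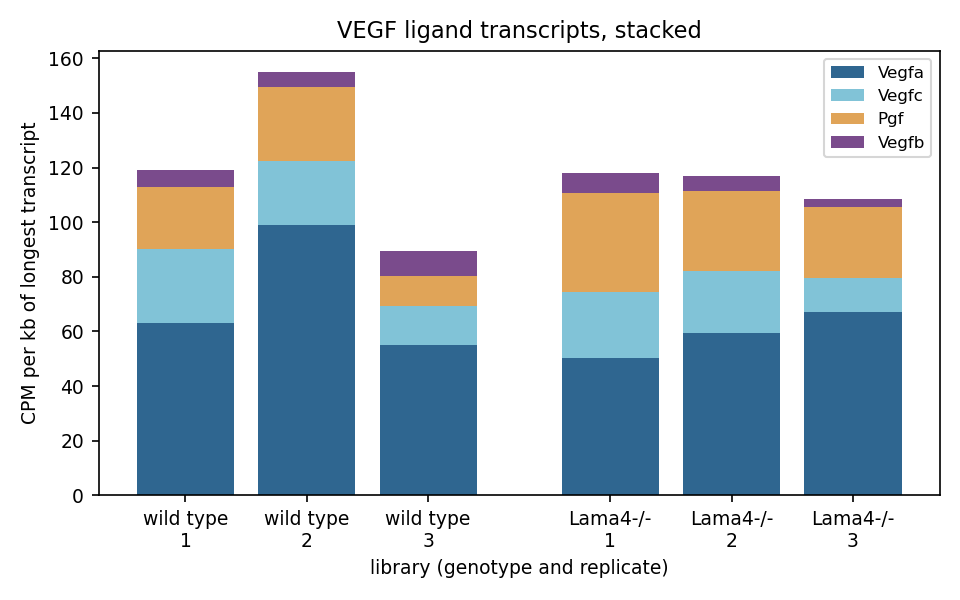
Vegfa, Vegfc, Pgf and Vegfb in CPM per kb of the longest annotated transcript, stacked for each of the 6 libraries. The totals are 89.5 to 155 in wild type and 109 to 118 in Lama4-/-, with Vegfa the largest part throughout and a larger Pgf share of the total (not always a taller Pgf part) in each Lama4-/- library than in any wild type library.

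The VEGF receptor tyrosine kinases had few counts in the sorted cells. Flt1 (VEGFR1) had 8 counts over the 6 libraries, Flt4 (VEGFR3) 5 and Kdr (VEGFR2) 36, of which 35 were in wild type, and none was tested. The neuropilins, coreceptors of VEGF and semaphorins, were abundant. Nrp1 was at 139, 138 and 145 CPM in wild type and at 72.6, 65.4 and 30.6 CPM in Lama4-/-. The wild type libraries were almost level and all well above Lama4-/-, with a log2 fold change of -1.32 (SE 0.32; edgeR, adjusted p = 0.237; DESeq2, 0.0100). With the length trend removed Nrp1 was at -1.20 (unadjusted p = 0.00553). Nrp2 was at 336, 227 and 385 CPM against 198, 152 and 185 CPM, with no overlap and a log2 fold change of -0.83 (SE 0.24; edgeR, adjusted p = 0.256; DESeq2, 0.0542). Its transcript is 6723 bases long, and with the length trend removed the value was -0.04. The authors' deposited table lists both neuropilins under 0.05, Nrp1 at an adjusted p of 0.00810 and Nrp2 at 0.0434. Of its genes with an adjusted p, 4.75% are lower by that rule, and DESeq2 here called 3.56% of genes lower. Over all tested genes, 12% had wild type above Lama4-/- with no overlap. With the length trend removed, 3.16% were lower in edgeR at an unadjusted p under 0.05.

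By mean level per kilobase in wild type the order was Hif1a (81.4 ± 17.2), Vegfa (72.4 ± 23.4), Epas1 (21.7 ± 13.6), Vegfc (21.6 ± 6.60), Vhl (13.4 ± 4.45), Bnip3 (12.1 ± 1.46), Arnt (8.42 ± 3.25), Egln1 (7.33 ± 5.45), Vegfb (6.98 ± 1.88) and Egln3 (1.80 ± 0.626), in CPM per kb. The wild type ranges of neighbours in this order overlapped except between Vegfa and Epas1 and between Vegfb and Egln3. In Lama4-/- Vegfa came first, at 58.9 ± 8.41, and Hif1a second, at 40.8 ± 16.05 CPM per kb. Epas1 went from rank 3 to rank 7, at 6.16 ± 2.06 CPM per kb, below Arnt at 9.32 ± 2.81. The remaining genes kept their relative order.

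Some other genes followed Hif1a and Vegfa closely from library to library. Among 6294 genes with a mean of at least 20 CPM, the closest to Hif1a over the 6 libraries, by Pearson's r of log2(CPM + 0.5), were the adaptor Crk (0.997), Tmx4 (0.993) and the transcription factor Nfatc2 (0.992). Nfatc2 ran at 193, 387 and 270 CPM in wild type and at 66.0, 155 and 97.2 CPM in Lama4-/-, in the same order of libraries as Hif1a. The closest to Vegfa were Casc4 (0.982), Manba (0.980) and Dpp9 (0.978). There were 73 genes with r over 0.95 to Hif1a and 11 to Vegfa, and with 6 points from shared libraries these likenesses are a description only.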

How the data were processed

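RNA of 3 wild type and 3 Lama4-/- samples was turned into cDNA with SMART-Seq v4, made into Nextera XT libraries and read as 75 bp single ends on 1 of 2 instruments, per the labels' protocols, which do not say which library ran on which. The kit does not mark strand. Per the submitters' processing notes the tools included STAR 2.6.1d (aligner), featureCounts from Subread, and DESeq2, with FastQC 0.11.8 and MultiQC 1.7 for quality and builds GRCm38 and mm10. Their parameters are not given here.

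The headings of the 2 value blocks appear exchanged. The block called normalized has only whole numbers (100% of cells) and served as the authors' deposited counts. The block called raw is a deposited signal equal to those counts times 1 factor per library (0.708 to 1.98) and was not tested. The authors' own comparison, a DESeq2 Wald test with a beta prior per the file headers, adds a mean signal, log2 fold change, its standard error, the test score, p-value and adjusted p-value.

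In R 4.3.3, edgeR 4.0.16 (filterByExpr, TMM, robust quasi-likelihood F test, Benjamini-Hochberg over 14465 genes, threshold 0.05) compared the genotypes with no covariate. SEs follow from the F statistic. CPM are counts per 1000000 of the TMM-adjusted library total, and levels per kilobase use the longest GENCODE transcript. No 2 libraries of a genotype were copies of each other (their chi-square was at least 46.4 per gene). Alternatives were DESeq2 size factors, upper-quartile scaling, no filter, 5 CPM in 3 libraries, DESeq2 1.42.0, limma 3.58.1 voom, a replicate block, removal of a length trend (lowess, span 0.3), the last 2 together, and each library left out. DESeq2 with each library left out was added after seeing the data. The procedures were tested on simulated counts. Where a listed symbol had several gene identifiers (Aldoa), the one with most counts was taken.

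The 10 members, the lists and the rule for named genes were chosen with earlier results of these data known. The rule names the members, Lama4, genes of the lists of HIF partners, sensors, VEGF ligands and receptors, the 4 targets of smallest p in each direction, and the 3 genes closest to Hif1a and Vegfa, and sort gate genes. The coactivators Crebbp, Ep300 and Cited2, the endothelial genes Cdh5, Tek, Tie1, Esam, Plvap and Cldn5, and the stromal genes Cxcl12, Lepr, Pdgfrb, Col1a1 and Col1a2 were added after their values were seen. No sample was left out of the fit. Of the HIF target genes, 1 is counted in the list's totals and is otherwise not reported here.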

Additional observations from a re-analysis of the deposited data

How the results depend on the processing

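Of 150 values of the 10 genes under 15 alternatives each, 138 kept direction and side of the threshold. Another 10 turned sign, and 2 passed the threshold, both with DESeq2. As edgeR called 0 of the 10 genes, the count tells mostly of direction. Hif1a ran from -1.36 to -0.60 and Epas1 from -2.13 to -1.11 on the log2 scale, always negative. The number of the 10 genes past the threshold was 0 in edgeR and 2 with DESeq2, and 1 to 2 when single libraries were left out of DESeq2. Over all tested genes the number was 1, and 741 with DESeq2, 12 with no filter, 0 with upper-quartile scaling, limma voom, the replicate block, the length trend removed, or the last 2 together, and 0 to 1 with single libraries left out. At an unadjusted p under 0.05 there were 644 higher and 1207 lower genes, and 988 and 967 with upper-quartile scaling, or 716 and 457 with the length trend removed.

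Signs turned for small changes. With the length trend removed, Bnip3 was at -0.038, Egln2 at -0.087, Hif1an at 0.53 and Pfkfb3 at 0.064; with the replicate block as well, Bnip3 was at -0.11, Egln1 at 0.18, Egln2 at -0.12, Hif1an at 0.80 and Pfkfb3 at 0.045. With the replicate block alone Egln1 was at 0.046 and Hif1an at 0.11, and with limma voom Hif1an was at 0.31. With single libraries left out, Arnt ran from -0.043 to 0.50, Egln1 from -0.80 to 0.27, Vegfc from -0.34 to 0.12, Vhl from -0.0095 to 0.41, Egln2 from -0.17 to 0.30 and Hif1an from -0.56 to 0.36. The causes were not tested. Same-numbered libraries share only a number: their deviations from the group means correlated at 0.040, 0.13 and 0.054, each library best with its own number, a hint from the data and not the design. Among the 10 genes edgeR made no call without the block, so there was none to lose, and it made none with it. Their calls therefore cannot show whether the block matters. The call of Lama4 was lost with the block. Low counts limit the precision of Egln3, Vegfb and the VEGF receptors.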
